A study of Rattus norvegicus with 8 samples.

Results

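The glucocorticoid receptor Nr3c1 and 8 genes tied to its hormone, Hsd11b1, Fkbp5, Tsc22d3, Zbtb16, Sgk1, Sult1a1, Cebpb and Cebpd, were followed in left ventricles of late-pregnant female rats. They were taken by name, as the probe sets to which the array's annotation gives exactly 1 gene symbol equal to one of these 9. Each gene was found and had 1 probe set, so they make up 9 of 14497 named genes and 9 of 28826 probe sets. All hearts had gone through ischemia, the stop of their blood supply, and then reperfusion. At reperfusion 5 hearts (the ILPD group) had the treatment, and 3 (the placebo group) had a vehicle. The design text, which writes the treatment as ITLD, gives a single bolus of 5 mg/kg, and the title names Intralipid, a fat emulsion for infusion. That ILPD and ITLD are the same treatment is assumed. Hearts without ischemia were not analysed here, so the injury is shared by both groups. The labels number replicates without naming separate animals, so each p-value is set against the spread between labelled samples, and some of that spread may be technical.

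Corticosterone, the main glucocorticoid of the rat, enters cells and binds Nr3c1, which waits in the cytosol in a complex with Hsp90 and its partners. The bound receptor moves to the nucleus, raises the transcription of some genes and lowers that of others, many inflammatory ones among them. Cardiomyocytes, vessel cells and white blood cells all hold the receptor. Several of its targets act back on it: Fkbp5 lowers its affinity for hormone, and Hsd11b1 makes active hormone inside the cell. Transcripts were measured here, and neither hormone nor receptor protein, so the names of the lists say what the genes are known for and not what drove them in these hearts.

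Sequences just upstream of the start are shown for the 2 members with a direct bearing on the results, Sult1a1, which passed the test, and Fkbp5, the feedback gene of the receptor. Both are the 250 bases before the annotated start from RefSeq on build GRCr8, on the minus strand, at chr1:190706113-190706362 for Sult1a1 and chr20:6543556-6543805 for Fkbp5. Capitals mark a match to a searched motif.
Sult1a1: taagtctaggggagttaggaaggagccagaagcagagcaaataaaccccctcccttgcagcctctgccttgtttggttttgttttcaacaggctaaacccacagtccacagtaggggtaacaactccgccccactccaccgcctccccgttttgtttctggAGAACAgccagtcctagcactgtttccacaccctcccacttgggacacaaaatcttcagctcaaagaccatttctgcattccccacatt
Fkbp5: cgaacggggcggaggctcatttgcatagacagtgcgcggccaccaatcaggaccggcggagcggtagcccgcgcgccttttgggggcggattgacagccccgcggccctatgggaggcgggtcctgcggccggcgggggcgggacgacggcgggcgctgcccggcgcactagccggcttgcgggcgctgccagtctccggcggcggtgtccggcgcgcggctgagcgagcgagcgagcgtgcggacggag
The motifs, read on both strands, were AGAACA, a single arm of the element that the receptor binds, GNACA followed by any 3 bases and TGTNC, the paired element, which shares letters with AGAACA, and TTGCNNAA, a core bound by C/EBP factors such as Cebpb and Cebpd. Of the 9 genes, 6 had such a window (Cebpb, Fkbp5, Nr3c1, Sgk1, Sult1a1 and Tsc22d3), with 11 windows between them because some have several starts. AGAACA was found once, in Sult1a1, with its first base at position -89 from the start. The paired element and the C/EBP core were in 0 of the 11 windows. Of 33360 different windows of the same length, 17.5% held AGAACA, 0.375% the paired element and 9.2% the C/EBP core. A match is a run of letters and not a shown binding site, and sites farther away were not searched.

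Of the 9 genes, 1 passed the test, Sult1a1, which was higher in ILPD hearts, and 8 did not (limma, Benjamini-Hochberg adjusted over all probe sets, threshold 0.05). Over all probe sets 2.81% passed, 1.96% as higher and 0.857% as lower. Over named genes, with 1 probe set each, 3.46% passed, 2.29% as higher and 1.17% as lower. The genes did not move one way: 6 had a positive and 3 a negative difference, with a median of 0.12 on the log2 scale, against 0.02 over all probe sets. At an unadjusted p of 0.05, 4 were higher and 2 lower, that is 6 of 9. That p was reached by 18.3% of all probe sets and 20.9% of named genes. The 9 genes and the lists below were chosen with earlier results of these data known. Their counts beside such shares are descriptions and not independent evidence. The 2 groups did not overlap for Sult1a1, with ILPD above (7.95% of all probe sets and 8.19% of named genes). Nor did they for Nr3c1, with ILPD below (4.42% of all probe sets and 5.83% of named genes). That made 2 of 9 genes, against 12.4% of all probe sets in either direction. All values below are log2 array values, and levels of different genes cannot be set against each other on this scale.

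**Figure D1:**
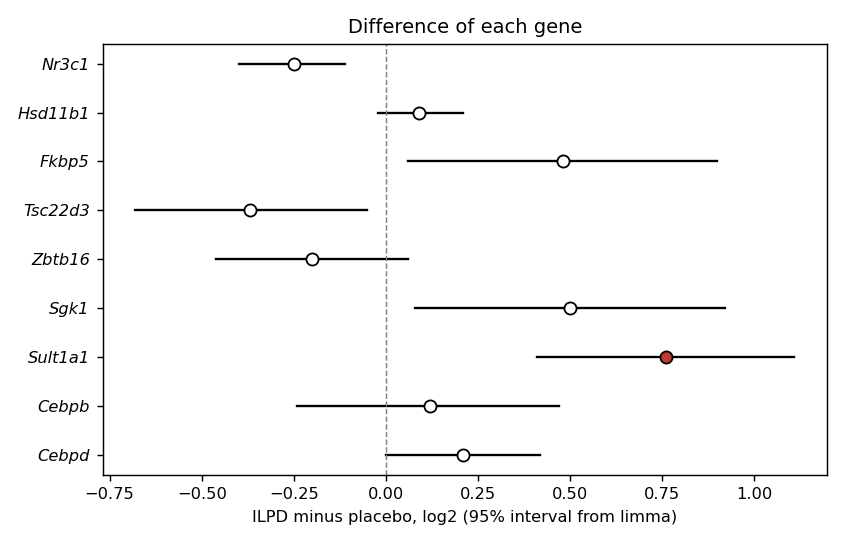
Difference between ILPD and placebo for each of the 9 genes on the log2 scale (x axis), with its 95% interval from limma, not adjusted for the number of probe sets. The filled point, Sult1a1 at 0.76, is the one that passed the adjusted threshold, and Nr3c1 at -0.25 has the narrowest interval among the genes with a negative difference.

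Nr3c1, the receptor itself, was measured in the ILPD arrays at 10.19, 10.23, 9.97, 10.12 and 10.04, against 10.39, 10.36 and 10.36 in the placebo arrays. All 5 ILPD arrays lay below all 3 placebo arrays, by 0.13 at the closest. The means were 10.11 ± 0.11 in ILPD (SD, n = 5) and 10.37 ± 0.02 in placebo (SD, n = 3), a difference of -0.25 (95% interval -0.40 to -0.11) or 0.838-fold. It did not pass the test over all probe sets (limma adjusted p = 0.0743, and 0.0673 to 0.222 over 14 alternatives). The exact two-sided permutation test gave an unadjusted p of 0.0357, the smallest that 5 arrays against 3 allow. Probe sets as bright as that of Nr3c1, with a mean from 10 to 11, had a median difference of -0.10, and after cyclic loess normalization between arrays the difference of Nr3c1 was -0.17. The related mineralocorticoid receptor Nr3c2, which binds the same hormone, was at 9.96 ± 0.09 in ILPD and 10.02 ± 0.21 in placebo, a difference of -0.06 (95% interval -0.27 to 0.14, limma adjusted p = 0.782), with groups that overlapped. In such bulk tissue, fewer cells of a type and less RNA per cell cannot be told apart.

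The chaperones that hold the receptor ready for hormone were lower in ILPD hearts. Of 13 measured, 8 fell and 0 rose in limma's test, against 1.17% of all named genes that fell and 3.46% that passed in either direction. At an unadjusted p of 0.05 all 13 were lower and 0 higher, where 20.9% of named genes reached it. Their median difference was -0.46, against 0.01 over all named genes. Probe sets with means from 9 to 15, where these genes lie, had median differences of -0.05 to -0.15. These genes also belong to the heat shock response, and the list was chosen with its fall already known, so its direction is not independent evidence. Hsp90ab1, the constitutive Hsp90 that clasps the receptor, was at 13.01, 13.04, 13.00, 12.85 and 12.92 in ILPD, against 13.56, 13.55 and 13.56 in placebo. It fell by 0.59 (SE 0.06, limma adjusted p = 0.00155), a gap many times the spread within either group. Stip1, which passes the receptor from Hsp70 to Hsp90, fell by 1.27 and Hspa4, an exchange factor of Hsp70, by 0.46 (adjusted p = 9.42e-05 and 0.0294); the call of Hspa4 did not survive the loss of any single placebo array or of ILPD array 3, nor the replicate block. Dnajb1 fell by 2.89, Hsp90aa1 by 1.35, Dnaja1 by 1.31 and Hspa8 by 0.38. Under cyclic loess normalization Hspa8 did not pass (-0.17, adjusted p = 0.142), and Dnaja1 did not pass without placebo array 2 (0.0669) or 3 (0.0614). Ptges3, the p23 protein that closes the complex, Ppid, an immunophilin, and Ppp5c, a phosphatase on Hsp90, had lower means in ILPD and did not pass. The same held for Bag1 and Stub1. For Ptges3, Ppid, Ppp5c and Bag1 the groups did not overlap, with narrow gaps of 0.01 to 0.07. All ILPD arrays lay below all placebo arrays for 5.83% of named genes. The difference was -0.33 for Ptges3 (adjusted p = 0.075) and -0.29 for Ppid (0.0802). It was -0.21 for each of Ppp5c, Bag1 and Stub1. The count of 8 dropped to 5 when placebo array 2 was left out and to 5 when array 3 was.

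Fkbp4 and Fkbp5, the 2 immunophilins that take turns in the receptor complex, had differences of opposite sign. Fkbp4, which favours hormone binding and travel to the nucleus, was at 10.10, 10.16, 9.60, 10.08 and 10.36 in ILPD arrays, against 10.88, 10.85 and 10.97 in placebo arrays. It fell by 0.84 (SE 0.14, limma adjusted p = 0.0165), with no overlap, a call lost without any single placebo array (0.0535 to 0.0753). Fkbp5, which opposes both steps and is a classical target of the hormone, was at 9.62, 9.93, 10.13, 9.18 and 9.36 in ILPD arrays, against 9.17, 9.14 and 9.19 in placebo arrays. The placebo arrays lay within 0.05 of each other, while the ILPD arrays ran over 0.95, from the placebo level in array 4 to well above it in array 3. The difference of Fkbp5 was 0.48 (95% interval 0.06 to 0.90, 1.39-fold), which did not pass (limma adjusted p = 0.215, exact permutation p = 0.0714 unadjusted). With the replicate number as a block the difference was 0.73 and passed (adjusted p = 0.0376), in a fit in which only the 3 numbers found in both groups inform the difference.

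**Figure D2:**
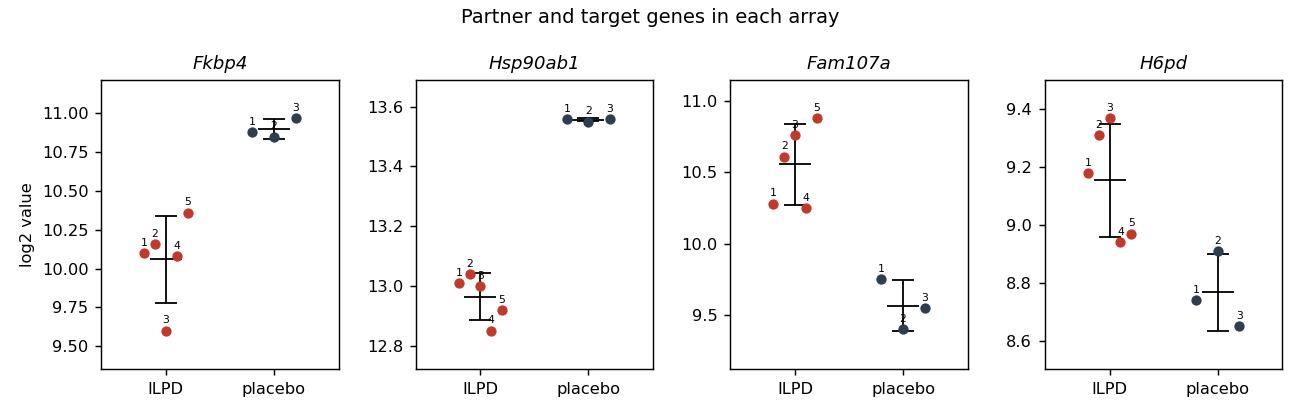
Log2 values (y axes, each with its own range) of 4 genes from the lists around the receptor, 1 point per array numbered by replicate, with mean and SD. Fkbp4 and Hsp90ab1 are lower in all 5 ILPD arrays than in the 3 placebo arrays, and Fam107a and H6pd are higher in all 5. H6pd did not pass (limma adjusted p = 0.091). Groups did not overlap in either direction for 12.4% of all probe sets.

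Coregulators, the proteins that the receptor calls to chromatin, had small differences. Of 12 measured, 2 fell and 0 rose in limma's test (1.17% of named genes fell). At an unadjusted p of 0.05, 1 was higher and 4 lower, where 20.9% of named genes reached it in either direction. The median was -0.12, against 0.01 over all named genes. Probe sets with means from 9 to 12, where most of these genes lie, had median differences of -0.05 to -0.13. Carm1, an arginine methyltransferase, fell by 0.33 (SE 0.07, adjusted p = 0.0328), and Ncoa1, a coactivator that binds the receptor directly, fell by 0.31 (SE 0.07, adjusted p = 0.0424). Their groups did not overlap, but each call held in only 4 of 14 alternatives, the highest adjusted p being 0.144 for Carm1 and 0.126 for Ncoa1. The acetyltransferase Ep300 had the widest difference of the list, -0.35, and did not pass (adjusted p = 0.0547).

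None of the enzymes that set local hormone passed the test. Hsd11b1, the reductase that makes active hormone inside the cell, was at 9.12, 9.17, 9.24, 9.18 and 9.24 in ILPD, against 9.09, 9.08 and 9.13 in placebo. The ILPD arrays stood slightly higher, with array 1 inside the placebo range, and the difference of 0.09 (95% interval -0.02 to 0.21) did not pass (limma adjusted p = 0.394). H6pd, which feeds that reductase its NADPH, was at 9.18, 9.31, 9.37, 8.94 and 8.97 in ILPD, against 8.74, 8.91 and 8.65 in placebo. Its groups did not overlap, though by a narrow margin, and its difference of 0.39 (95% interval 0.15 to 0.63) did not pass (adjusted p = 0.091); with the replicate block it was 0.52 and did (0.0494). Hsd11b2, which inactivates the hormone, had 6.97 ± 0.03 in ILPD and 6.84 ± 0.05 in placebo, a difference of 0.14 (adjusted p = 0.191). Of the 6 measured genes in this list of receptors and enzymes, 0 passed in limma, 2 were higher and 0 lower at an unadjusted p of 0.05 (20.9% of named genes reached it), and the median was 0.04.

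Sult1a1, a sulfotransferase for phenols that glucocorticoids are known to raise in rat liver, had the largest difference of the 9 genes. It was at 11.12, 10.98, 11.18, 10.70 and 10.85 in ILPD arrays, against 10.55, 10.25 and 9.82 in placebo arrays. All ILPD arrays lay above all placebo arrays, by 0.15 at the closest, and the placebo arrays spread over 0.73. The means were 10.97 ± 0.20 in ILPD (SD, n = 5) and 10.21 ± 0.37 in placebo (SD, n = 3). Sult1a1 was higher by 0.76 (SE 0.16, 95% interval 0.41 to 1.11), or 1.69-fold, with a limma adjusted p of 0.0375, and it ranked 159 by size of difference among 28826 probe sets. Leaving out placebo array 2 ended the call (difference 0.78, adjusted p = 0.112), as did leaving out placebo array 3 (0.56, 0.104) or ILPD array 1, 2 or 3 (0.056 to 0.0794); it held in the other 9 of 14 alternatives. Its upstream window, printed above, was the single one of the members' 11 windows with AGAACA, which 17.5% of all windows held. Whether the receptor binds there was not tested.

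Sgk1, a kinase that both corticosteroid receptors switch on and that acts on ion channels, was at 11.35, 11.58, 11.56, 11.30 and 11.16 in ILPD, against 10.57, 10.63 and 11.47 in placebo. A single placebo array, number 3, stood among the ILPD values, and the other 2 lay below all of them. The difference of 0.50 (95% interval 0.08 to 0.92, 1.41-fold) did not pass (limma adjusted p = 0.199). Leaving out placebo array 3 gave 0.79, which passed (adjusted p = 0.0252), while leaving out placebo array 1 gave 0.34 (0.515). Its value in placebo array 3 was not marked by any label of that sample.

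Tsc22d3, known as GILZ, a leucine zipper protein that carries much of the anti-inflammatory action of the hormone, differed the other way. It was at 9.95, 9.74, 9.56, 9.21 and 9.71 in ILPD, against 10.02, 10.13 and 9.85 in placebo. ILPD array 1 lay between placebo values and the other 4 lay below all of them. The difference of -0.37 (95% interval -0.68 to -0.05, 0.776-fold) did not pass (limma adjusted p = 0.211). Its 3 measured relatives Tsc22d1, Tsc22d2 and Tsc22d4 had differences of -0.13, -0.35 and -0.30, and none passed. Zbtb16, or PLZF, a zinc finger repressor that rises strongly with glucocorticoids in many cell types, was at 11.63, 11.67, 11.82, 11.27 and 11.37 in ILPD, against 11.73, 11.82 and 11.71 in placebo. Its groups overlapped, with ILPD arrays 4 and 5 well below the rest, and the difference of -0.20 (95% interval -0.46 to 0.06) did not pass (adjusted p = 0.407). After quantile and cyclic loess normalization it was -0.08 and -0.07.

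Cebpb and Cebpd, leucine zipper factors of the acute phase response that glucocorticoids and cytokines both raise, did not pass. Cebpd was at 10.30, 10.17, 10.32, 10.16 and 9.88 in ILPD, against 9.98, 9.93 and 9.95 in placebo. ILPD arrays 1 to 4 lay above the placebo arrays and array 5 below them. The difference of 0.21 (95% interval 0.00 to 0.42) had a limma adjusted p of 0.265, and without ILPD array 5 it was 0.29 and passed (0.0443). Cebpb was at 8.91, 8.86, 8.70, 8.44 and 8.19 in ILPD, against 8.33, 8.50 and 8.69 in placebo. Here the ILPD arrays reached both above and below the placebo range. The difference of 0.12 had a 95% interval that covered both signs, from -0.24 to 0.47 (limma adjusted p = 0.767). Their relatives Cebpa (0.19), Cebpe (0.09), Cebpg (-0.11) and Ddit3 (-0.38) did not pass either. Over the 24 measured paralogs of the 9 genes, 0 passed in limma, 1 was higher and 5 lower at an unadjusted p of 0.05 (20.9% of named genes reached it in either direction), and the median was -0.03.

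**Figure D3:**
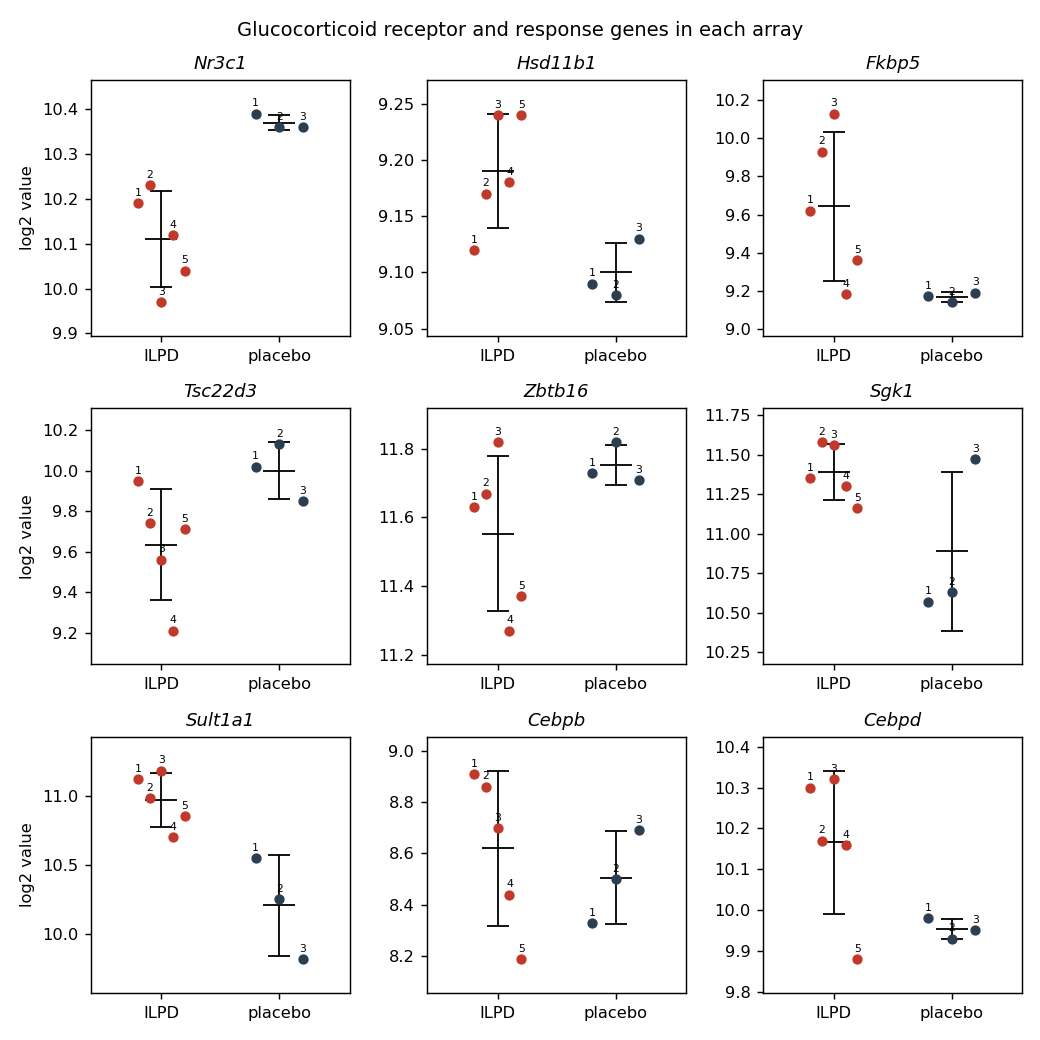
Log2 values (y axes, each with its own range) of the 9 genes, 1 point per array numbered by replicate, with mean and SD. For Nr3c1 all 5 ILPD arrays lie below the 3 placebo arrays and for Sult1a1 all lie above. Fkbp5, Tsc22d3 and Cebpb spread most widely among ILPD arrays.

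Several of the genes had their lowest ILPD values in the same arrays. In 6 of the 9, Fkbp5, Zbtb16, Sgk1, Sult1a1, Cebpb and Cebpd, the 2 lowest of the 5 ILPD values were those of arrays 4 and 5; in Nr3c1, Hsd11b1 and Tsc22d3 they were not. This pair of arrays was noted after the values were seen, and over all probe sets they were the 2 lowest in 13.2%, so the count is a description with no test. The range over ILPD arrays was 0.95 for Fkbp5, 0.74 for Tsc22d3 and 0.72 for Cebpb, and 0.13 for Hsd11b1. The same arrays differed over all probe sets: on the second principal component, which held 19% of the variance, ILPD arrays 1 to 5 scored 20.6, 7.72, -4.40, -11.1 and -15.6. Cebpb followed the order of these scores exactly. Whether that component has a part in the genes' spread was not tested, and no label sets arrays 4 and 5 apart.

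**Figure D4:**
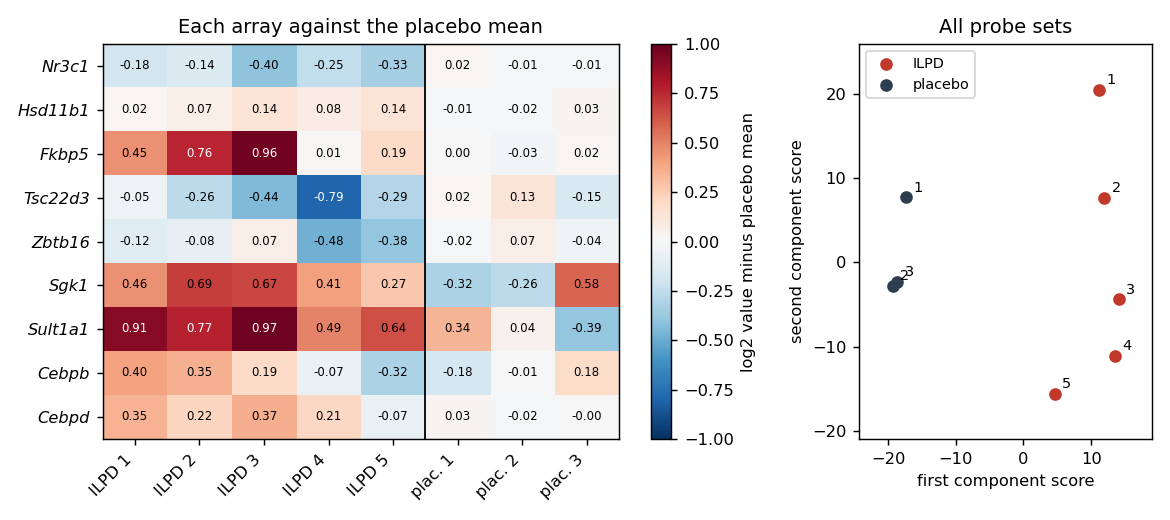
On the left, log2 value minus the mean of the 3 placebo arrays for each gene and array (colour scale and printed number). On the right, scores of all 8 arrays on the first and second principal components of all probe sets. Fkbp5 and Sult1a1 are highest in ILPD array 3, and arrays 4 and 5 have the lowest scores on the second component.

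Other genes known to be induced by glucocorticoids rose in a few cases. Of 38 measured, 3 rose and 0 fell in limma's test (2.29% of named genes rose). At an unadjusted p of 0.05, 13 were higher and 2 lower, where 20.9% of named genes reached it in either direction. The median was 0.14, against 0.01 over all named genes. Fam107a, an actin-associated protein known from mouse brain to rise with stress and glucocorticoids, was at 10.28, 10.61, 10.76, 10.25 and 10.88 in ILPD, against 9.75, 9.40 and 9.55 in placebo. It rose by 0.99 (SE 0.15, adjusted p = 0.0111), with no overlap between groups, and passed in 12 of 14 alternatives; the exceptions left out placebo array 2 (0.0599) or 3 (0.0539). Mertk, the receptor by which macrophages engulf dying cells, rose by 0.26 (adjusted p = 0.0461), a call that held in 3 of 14 alternatives, and Nfkbia, the inhibitor of NF-kB, by 0.71 (0.0462), which held in 6. The count of 3 became 0 when placebo array 2 or 3 was left out, and 1 when placebo array 1, ILPD array 2 or ILPD array 3 was. Of the 38, 8 had every ILPD array above every placebo array, where 8.19% of named genes did, and 1 had every one below, where 5.83% did.

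Per1, Klf9 and Dusp1, well-known targets of the receptor, did not pass. Per1, a clock gene with a strong receptor site, was at 10.60, 10.76, 11.06, 10.55 and 10.50 in ILPD, against 9.97, 10.38 and 10.38 in placebo, and did not overlap. Its difference of 0.45 (95% interval 0.15 to 0.76) had a limma adjusted p of 0.116, and 0.0403 with the replicate block. Klf9, a Kruppel-like repressor, differed by 0.19 (95% interval -0.01 to 0.38, adjusted p = 0.308). Dusp1, a phosphatase that switches off stress kinases, differed by 0.25 (95% interval -0.30 to 0.80, adjusted p = 0.653), with placebo arrays spread from 11.42 to 12.71. Its sign rested on placebo array 1: the difference was -0.10 when that array was left out, and 0.55 when array 3 was. Lcn2, a lipocalin that inflamed tissue and neutrophils also make, had the largest difference of the list, 1.36 (95% interval 0.43 to 2.30), with overlapping groups and no pass (adjusted p = 0.119); it passed with the replicate block (1.88, 0.045) and without ILPD array 5 (1.61, 0.0493).

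None of the genes that glucocorticoids are known to lower passed as lower. Of 14 measured, 1 rose and 0 fell in limma, 8 were higher and 0 lower at an unadjusted p of 0.05, and the median was 0.50, where 2.29% of named genes rose, 20.9% reached that unadjusted p in either direction and the median was 0.01. The chemokine Ccl2 rose by 0.64 (SE 0.13, adjusted p = 0.0358), in 7 of 14 alternatives. Nos2, the inducible nitric oxide synthase, had the largest difference, 0.75, and did not pass (adjusted p = 0.2). These genes are also those of inflammation, and 7 neutrophil markers had positive differences as well. Of those 7, 0 passed in limma (2.29% of named genes rose) and 3 were higher at an unadjusted p of 0.05 (20.9% reached it in either direction), with a median of 0.58. Summed over the 7, the log2 level was 11.11 to 12.23 in ILPD and 10.68 to 11.40 in placebo. The part of white blood cells in the members' values was not tested.

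**Figure D5:**
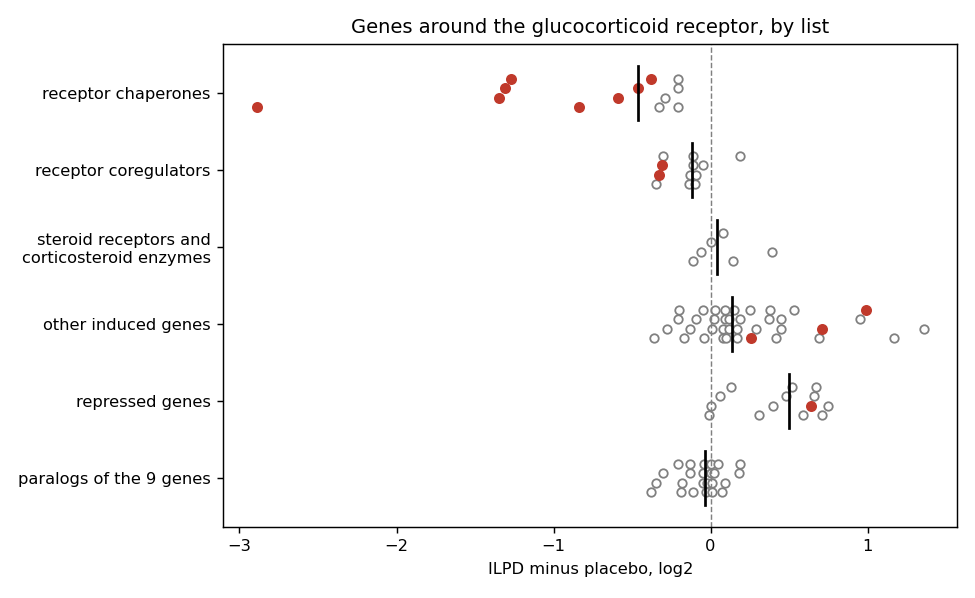
Difference between ILPD and placebo on the log2 scale (x axis) for every measured gene of 6 lists around the receptor, 1 point per gene, filled where limma's adjusted p was under 0.05, with a bar at each list's median. The chaperones lie to the left with a median of -0.46, and the induced and repressed genes lie mostly to the right, with medians of 0.14 and 0.50.

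Some named genes tracked the members closely over the 8 arrays. Nr3c1 was most like Cdk2ap2, a partner of a cell cycle kinase, Azi2, an adaptor in antiviral signalling, and Cybc1, a chaperone of the phagocyte oxidase, with Pearson's r of 0.968, 0.962 and 0.959. Sult1a1 was most like Fmo2, a flavin monooxygenase, Slc28a2, a nucleoside transporter, and Nat8f2, with r of 0.990, 0.988 and 0.984. These are the highest among all named probe sets, were picked for that, and include the difference between groups, so they are a description. Azi2 fell by 0.55 and Cybc1 by 0.50 in ILPD (limma adjusted p = 0.013 and 0.02). Fmo2 was higher by 0.76 and Slc28a2 by 0.54 in ILPD (limma adjusted p = 0.0392 and 0.0251). Cdk2ap2, with a difference of -0.29, and Nat8f2, with 0.14, did not pass (limma adjusted p = 0.103 and 0.192).

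The 11 ventricular cardiomyocyte markers summed to a log2 level of 16.92 to 17.09 in ILPD and 17.13 to 17.16 in placebo, lower in every ILPD array, and all 11 had negative differences, with a median of -0.14. Probe sets as bright as these, with means from 12 to 15, had median differences of -0.15 to -0.11, and after quantile normalization 5 of the 11 markers had positive differences and after cyclic loess 8 did. Of the 11, Tnnc1 alone fell in limma (by 0.37, adjusted p = 0.0195); the call held in 9 of 14 alternatives and was lost under quantile (-0.23, 0.121) and cyclic loess normalization (-0.19, 0.205), with the replicate block (0.103) and without placebo array 2 (0.0887) or 3 (0.0689). The 3 atrial markers summed to 11.74 to 12.85 in ILPD and 12.43 to 13.55 in placebo. Their differences had mixed signs, -0.19 for Nppa, -0.68 for Myl7 and 0.53 for Sln, and none passed. Whether these samples, labelled left ventricle, held atrial tissue was not tested. Markers of macrophages and monocytes summed to 12.09 to 12.69 in ILPD and 11.63 to 12.10 in placebo. Of the 8, 1 rose, Cx3cr1 (by 0.76), where 2.29% of named genes did. That call held in 8 of 14 alternatives (limma adjusted p up to 0.123). The differences ran from -0.17 to 1.21, with 7 positive, 1 negative and a median of 0.19. The widest, that of Ccr2, did not pass (limma adjusted p = 0.0624). Adipocyte markers, all dim, summed to 9.21 to 9.46 in ILPD and 9.14 to 9.20 in placebo. Endothelial markers spanned 12.71 to 12.91 in ILPD and 12.65 to 12.88 in placebo, and fibroblast markers 13.78 to 13.97 in ILPD and 13.91 to 13.96 in placebo. The part of these shifts in the members' values was not tested. Array medians ran from 7.16 to 7.20 in ILPD and from 7.08 to 7.14 in placebo.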

How the data were processed

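Total RNA of rat left ventricle was labelled with biotin and hybridised to Affymetrix arrays, per the labels' protocols. The authors deposited 1 log2 value per probe set and array; the log2 scale was settled from the range of the values, and the submitters' processing notes name R 2.14.2. How they were normalized was not given in the sources used here. Precision is limited by the number of arrays, and no detection call was used.

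Genes were named from the platform annotation where it gave exactly 1 symbol (15209 probe sets), updated through gene IDs in RefSeq (15178 matched). For lists, the probe set with the highest mean stood for a gene. The 5 ILPD arrays were compared with the 3 placebo arrays in limma 3.58.1 (R 4.3.3; lmFit, then eBayes, no covariates), two-sided, with Benjamini-Hochberg adjustment over 28826 probe sets. The procedure was tested on simulated data. Exact permutation tests used all 56 splits (scipy 1.17.1). Figures used matplotlib 3.10.9. The alternatives were an intensity trend with robust prior, quantile and cyclic loess normalization, leaving out the dimmest 40%, array weights, the replicate block and leaving out each array. The 9 genes and the lists were chosen with earlier results of these data known. Named were the 9 genes, the passing genes and the widest difference of each list, 6 reference genes and the 3 closest probe sets to Nr3c1 and to each passing member; the other relatives, the chaperones that did not pass and the genes in the closing section were named after their values were seen. Pairing by replicate number was checked by correlating deviations from group means. For the 3 same-numbered pairs r was 0.221, -0.0642 and -0.098, and for the other pairs it ran from -0.165 to 0.247. The numbers were not taken to pair the arrays, though 3 pairs cannot exclude it.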

Additional observations from a re-analysis of the deposited data

How the results depend on the processing

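Over the 14 alternatives run for each of the 9 genes, 0 genes changed sign; of 126 values, 118 kept their side of the threshold, 5 lost the call of Sult1a1 and 3 gained one (Fkbp5 with the replicate block, Cebpd without ILPD array 5, Sgk1 without placebo array 3). The number of the 9 genes past the threshold was 2 at an adjusted p of 0.1 (Sult1a1 and Nr3c1) and 0 to 2 when single arrays were left out. With the replicate block it was 2, all probe sets past the threshold were 459 rather than 811, and 5 other induced genes rose rather than 3. Replicate numbers were not taken to pair the arrays, though a check on 3 same-numbered pairs cannot exclude pairing. By construction ILPD arrays 4 and 5, whose numbers placebo lacks, add nothing to the difference under the block. Quantile normalization left 484 probe sets. Leaving out single arrays gave 172 to 975 probe sets, 5 to 16 of the list genes (14 as deposited), 5 to 8 chaperones that fell and 0 to 3 other induced genes that rose. Of these induced genes, 1 rose with an intensity trend and robust prior, and 5 without the dimmest 40%. The causes of these shifts were not tested. With no detection calls, whether dim genes such as Hsd11b2 lay above background is not known.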

Other observations

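The change of Fkbp5 relative to Fkbp4, computed after both genes' values were seen and therefore given with no test, put the placebo mean at 0. It was 1.25, 1.5, 2.27, 0.83 and 0.74 on the log2 scale in the ILPD arrays, against 0.03, 0.02 and -0.05 in the placebo arrays. The mean over ILPD arrays was 1.32 ± 0.62 (SD, n = 5), and the placebo SD was 0.04 (n = 3). Fkbp4 alone was already lower in all 5 ILPD arrays than in the placebo arrays.

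Some list genes outside those named by rule had groups that did not overlap and no pass in limma. Those below were picked after their values were seen, and others in the same state, such as Cdkn1c, are not described. Over all named genes, the groups did not overlap with ILPD higher in 8.19% and with ILPD lower in 5.83%. Anxa1, which carries anti-inflammatory effects of glucocorticoids, was at 9.68 ± 0.24 in ILPD (SD, n = 5) and 9.15 ± 0.17 in placebo (SD, n = 3), with an adjusted p of 0.0658. Hif3a, a target of the receptor in several tissues, was at 7.53 ± 0.17 in ILPD and 7.24 ± 0.05 in placebo (limma adjusted p = 0.135). Il1r2, the decoy receptor for interleukin-1 that neutrophils carry and glucocorticoids raise, was at 9.63, 9.33, 8.39, 8.74 and 8.40 in ILPD, against 8.19, 7.36 and 7.63 in placebo, with a difference of 1.17 (adjusted p = 0.0683). Ptgds, a prostaglandin synthase, was at 7.73 ± 0.09 in ILPD and 8.10 ± 0.34 in placebo (adjusted p = 0.17), the 1 induced gene of the list with all ILPD arrays lower.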
